A study of Mus musculus with 59 samples.

Results

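The genes described here are markers of striatal spiny projection neurons, the inhibitory output neurons that make up most of the striatum. They were chosen by name from the general literature on this cell type: 42 genes were named, and 41 of them were matched by symbol among the 54232 genes of the deposited count tables. Gpr52 was not matched and has no value here. By role, 5 of the matched genes mark the direct pathway, 4 the indirect pathway, 5 encode other receptors, 9 belong to G protein and cyclic nucleotide signalling, 6 encode other enzymes and signalling proteins, 5 encode channels, synaptic or cytoskeletal proteins, and 7 encode transcription factors. No measured value entered the choice of the genes, although earlier results of these data were known when it was made.

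RNA was sequenced from the striatum, cortex, hippocampus, brainstem, and cerebellum of C57BL/6 mice at 10 weeks of age. There were 3 groups, with 1 library per mouse in a region: wild-type mice (WT), mice of the genotype Atxn1 154Q/2Q (154Q), and mice called 154Q-AXH, of the genotype Atxn1 154Q[V591A;S602D]/2Q. The 154Q mice are heterozygous for an expanded CAG repeat knocked into the endogenous Atxn1 gene, a model of spinocerebellar ataxia type 1, so the mutant protein is made wherever Atxn1 is expressed. The 154Q-AXH mice carry the same expanded allele with V591A and S602D added in the AXH domain (positions in the human protein), which impair the binding of ATXN1 to the repressor capicua (CIC). The series held 59 libraries, 4 per genotype and region but 3 for 154Q-AXH brainstem. Libraries are named below by genotype and the number in their label, which recurs in each region, and values in every library run in ascending order of that number: WT-70 then WT-77, followed by WT-220 then WT-221, 154Q-69 then 154Q-71, followed by 154Q-75 then 154Q-76, and 154Q-AXH-207 then 154Q-AXH-209, followed by 154Q-AXH-217 then 154Q-AXH-218.

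Spiny projection neurons fall into a direct and an indirect pathway. Direct pathway neurons carry the D1 dopamine receptor, which raises cyclic AMP, and make substance P and dynorphin, whereas indirect pathway neurons carry the D2 dopamine receptor, which lowers cyclic AMP, together with a striatal adenosine receptor that raises it, and make enkephalin. In both, the cyclic AMP signal passes through a striatum-enriched set of proteins: the G protein subunit Golf, adenylyl cyclase 5, the phosphodiesterases PDE10A and PDE1B, RGS proteins, and the phosphatase inhibitor DARPP-32.

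Levels are given as counts per 1000000 counted read pairs (CPM), scaled within a region, with 28058359 to 54719126 counted read pairs per striatal library. Fold changes are on the log2 scale with their standard errors (log2FC ± SE) from edgeR's quasi-likelihood test with all libraries of a region in 1 model, and a gene was called a differentially expressed gene (DEG) at a Benjamini-Hochberg adjusted p under 0.05 over all genes tested in that region. All 41 genes passed the filter on low counts in striatum. Both comparisons with WT share the same 4 WT libraries.

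The labelled tissue was first checked against markers of striatum and of its neighbour, the cortex. Summed over 6 markers of cortical projection neurons, the striatal libraries held 1746, 1814, 603, and 1906 CPM in WT, 1391, 1546, 1352, and 1339 CPM in 154Q, and 1458, 1313, 386, and 1755 CPM in 154Q-AXH. Cortical libraries held 1707 to 2225 CPM, so all striatal libraries but WT-220 and 154Q-AXH-217 carried cortical markers at close to cortical level. The spiny neuron genes were at their highest in these same libraries: WT-220 was the highest WT library for 38 of 41 genes and 154Q-AXH-217 the highest 154Q-AXH library for 38, while 154Q-71 was the lowest 154Q library for 37 and 154Q-AXH-218 the lowest 154Q-AXH library for 34. Choroid plexus and ependymal markers varied within each genotype, from 56.6 to 1509 CPM in WT and from 58.1 to 2434 CPM in 154Q. Summed over all 41 genes, the level was 9734, 8289, 19021, and 8260 CPM in WT, 5535, 4043, 5606, and 5749 CPM in 154Q, and 4765, 7273, 12181, and 4144 CPM in 154Q-AXH. The 4 154Q libraries thus lay below every WT library in this sum, whereas 154Q-AXH-217 lay above 3 of the WT libraries. In these bulk samples fewer spiny neurons in a sample and less RNA per neuron cannot be told apart. Because the cortical markers differed between libraries, the main comparison is given beside a fit with a covariate. The covariate is the cortical marker level of each library (the mean log2 CPM of the 6 markers). It cannot separate fewer spiny neurons from less RNA per neuron. In the cortex of 154Q mice 2 of the 6 markers were themselves DEGs, beside 6.71% lower and 4.4% higher among all genes tested there. All 6 summed to 1933 to 2225 CPM in WT cortex, 1707 to 1861 CPM in 154Q, and 1740 to 1902 CPM in 154Q-AXH. Both mutants thus lay below WT. The covariate can therefore carry some genotype effect, and all counts from fits with it are given with this limit.

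**Figure D1:**
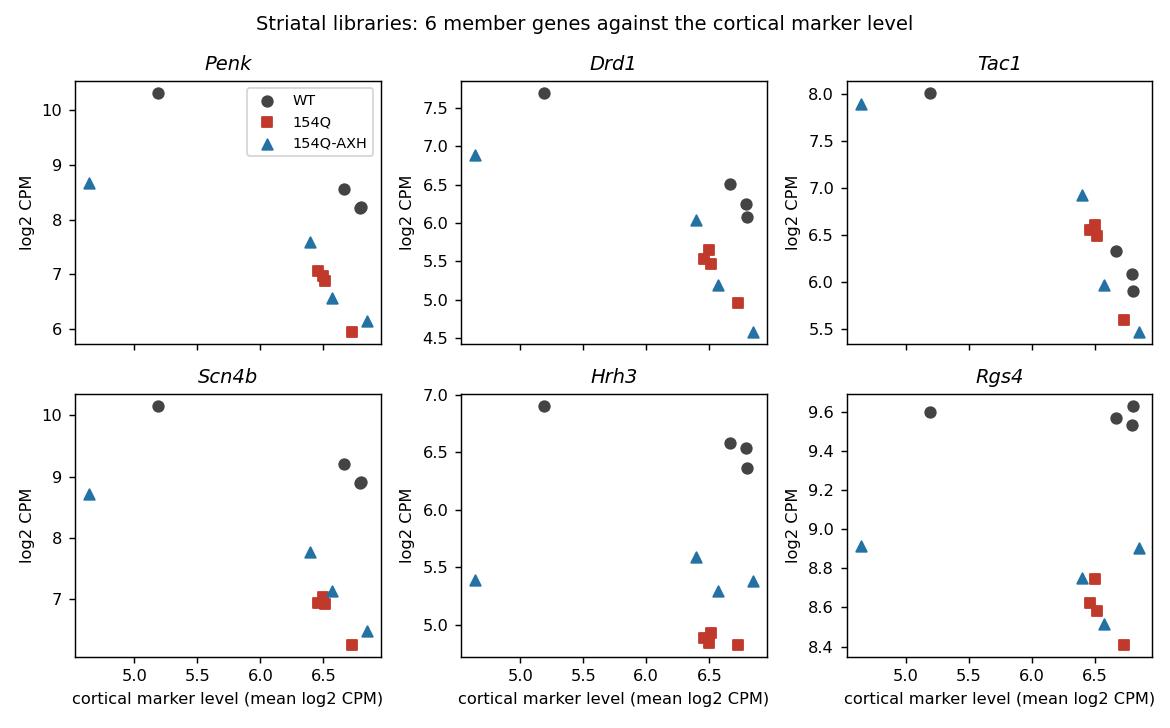
Level (log2 CPM) of Penk, Drd1, Tac1, Scn4b, Hrh3, and Rgs4 in each striatal library against the mean log2 CPM of the cortical markers, with 1 point per library and a colour and symbol per genotype. WT-220 and 154Q-AXH-217 have the lowest cortical marker levels (5.19 and 4.64), and the other 10 libraries sit between 6.40 and 6.84, where the 154Q and 154Q-AXH points lie below the 3 WT points for each gene but Tac1.

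In WT mice the genes were enriched in striatum. Against the mean of the other 4 regions 37 of 41 were higher in striatum, where 31.4% of all genes tested were higher, and Ebf1 alone was lower (log2FC = -0.88), where 27.8% were. Cnr1, Oprm1, and Strip2 did not pass the test. Against cortex alone 40 were higher, beside 6.77% of all genes. Every WT striatal library was above every WT cortical library for 38 genes, beside 8.19% of all genes. The highest mean level was in striatum for 35 genes, in cerebellum for Cnr1, Ebf1, and Strip2, in brainstem for Oprm1 and Zfp503, and in hippocampus for Bcl11b. Levels per length of exon (RPKM) spanned a wide range in WT striatum: the medians were 434 for Hpca, 250.2 for Rgs4, 244 for Ppp1r1b, 207.1 for Penk, and 108 for Gng7, and 0.135 for Drd3 and 0.0768 for Oprm1 at the low end. Drd3 and Oprm1 are used by small or patchy striatal populations.

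In striatum 11 of 41 genes were DEGs in 154Q against WT and all 11 were lower, which is 26.8% of the genes beside 3.77% lower among all genes tested. They were the ion channel subunit gene Scn4b, the phosphatase gene Ptpn7, the enkephalin precursor gene Penk, the receptor genes Hrh3, Oprk1, Cnr1, and Chrm4, the signalling genes Rgs4, Arpp21, and Hpca, and the channel-like gene Ano3. The median log2FC over the 41 genes was -0.99, and -0.0102 over all genes. The point estimate was below 0 for 37 genes, and for 25 every 154Q library was below every WT library, a share to be read beside 8.94% of all genes. In 154Q-AXH against WT 4 genes were DEGs, all lower, which is 9.76% beside 1.08% among all genes: Hrh3, Rgs4, Cnr1, and Chrm4. The median log2FC was -0.59, and for 5 genes the groups did not overlap with the 154Q-AXH libraries lower, beside 3.86% of all genes. The 4 genes called in both mutants were among those that differ little between the 2 tissues in WT mice, with striatum above cortex by log2 values of 0.59, 0.46, 0.64, and 0.51 for Hrh3, Rgs4, Cnr1, and Chrm4, against 5.77 for Drd2, 4.05 for Penk, and 3.46 for Drd1. Penk was still a DEG in 154Q, and the part of this tissue difference in the calls was not tested.

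With the cortical marker level as a covariate 27 genes were lower in 154Q (65.9%, beside 9.61% of all genes) and 25 in 154Q-AXH (61.0%, beside 4.85%), with a median log2FC of -0.78 in each. None was higher, beside 6.1% and 2.12% of all genes. All genes called without the covariate were called with it. When these 2 libraries were left out instead, a choice made after the data were seen, 16 genes were lower and Zfp503 was higher in 154Q, beside 7.45% lower and 4.31% higher among all genes, and 10 were lower in 154Q-AXH, beside 3.8%. The medians were then -0.65 and -0.67. With both changes 32 and 33 were lower, beside 6.29% and 4.78%, in 10 libraries of a narrow range of cortical marker levels. Single libraries moved the count without the covariate: it was 7 for 154Q without WT-220 and 20 without 154Q-AXH-217, whose group enters through the shared estimate of spread, 6 without 154Q-69, 5 without 154Q-71, 6 without 154Q-75 or 154Q-76, and 7 without 154Q-AXH-209. For 154Q-AXH it was 2 without 154Q-AXH-207 and 7 without 154Q-AXH-217. The numbers of the libraries fall into a low and a high series, and the 154Q libraries are all of the low and the 154Q-AXH libraries all of the high series, with WT libraries in both. With the series as a covariate 3 genes were lower in 154Q (Hrh3, Rgs4, and Cnr1) and 4 in 154Q-AXH, and between the mutants genotype and series cannot be told apart. For the fits with 1 library left out or with the series, the share of all genes called is not given. Their counts are thus not read as particular to these genes. Scn4b, Hrh3, Rgs4, Cnr1, and Chrm4 were called in 154Q, and Hrh3 and Rgs4 in 154Q-AXH, in all 12 fits that left out 1 library.

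**Figure D2:**
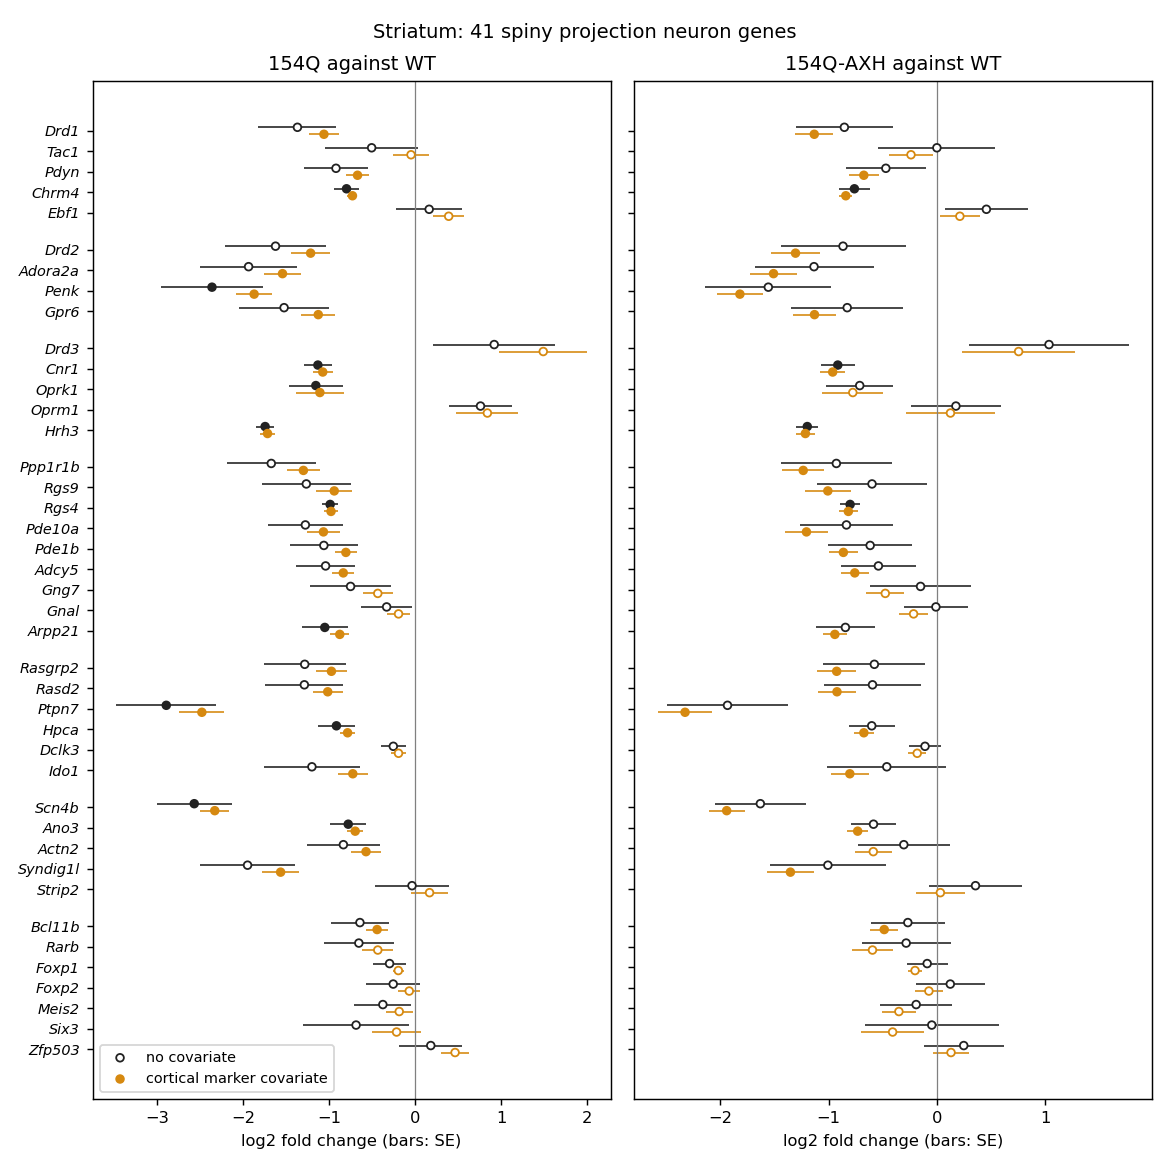
Log2 fold change against WT of the 41 genes in striatum, 154Q and 154Q-AXH, grouped by role; bars are standard errors, black symbols have no covariate, orange symbols have the cortical marker level as covariate, and filled symbols have an adjusted p under 0.05. The medians are -0.99 and -0.59 without the covariate and -0.78 and -0.78 with it, and the bars of every gene are shorter with it.

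Counts by role in striatum stand beside 3.77% of all genes lower in 154Q and 1.08% in 154Q-AXH. With the covariate the shares are 9.61% and 4.85%. A count of 0 or 1 in so few genes is not read as a result about the role. Among the direct pathway genes 1 of 5, Chrm4, was lower in both mutants, and the median log2FC was -0.80 in 154Q. Chrm4 encodes the M4 muscarinic receptor, which opposes D1 signalling, and its level was 42.1, 38.6, 54.5, and 39.5 CPM in WT libraries, 24.3, 24.8, 26.4, and 25.2 CPM in 154Q libraries, and 22.1, 25.7, 33.7, and 21.6 CPM in 154Q-AXH libraries. The 8 mutant libraries all lay below the 4 WT libraries. The log2FC was -0.80 ± 0.14, adjusted p = 0.0066 in 154Q and -0.76 ± 0.14, adjusted p = 0.0195 in 154Q-AXH, and the latter call was lost without 154Q-AXH-207, 154Q-AXH-209, or 154Q-AXH-218.

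Drd1 encodes the D1 receptor itself. Its level was 91.4, 67.4, 207.3, and 75.97 CPM in WT libraries, 44.1, 31.2, 46.4, and 50.04 CPM in 154Q libraries, and 36.6, 65.6, 118, and 23.98 CPM in 154Q-AXH libraries. The 154Q libraries lay below all WT libraries, while the 154Q-AXH libraries overlapped both groups. The log2FC was -1.37 ± 0.45, adjusted p = 0.0974 in 154Q and -0.86 ± 0.45, adjusted p = 0.476 in 154Q-AXH, and with the covariate Drd1 was lower in both (-1.06 ± 0.17, adjusted p = 0.00109, and -1.13 ± 0.17, adjusted p = 0.00136).

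Tac1, which encodes the precursor of substance P, was at 80.2, 59.8, 258, and 67.5 CPM in WT libraries, 89.4, 48.04, 93.95, and 97.5 CPM in 154Q libraries, and 62.6, 121, 237, and 44.2 CPM in 154Q-AXH libraries. The groups overlapped, and WT-220 and 154Q-AXH-217 stood far above the other 10 libraries. The log2FC was -0.50 ± 0.54, adjusted p = 0.607 in 154Q without the covariate and -0.05 ± 0.20, adjusted p = 0.904 with it, and Tac1 passed the test in neither mutant in either fit.

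Pdyn, which encodes the dynorphin precursor, was at 52.1, 57.9, 122, and 43.1 CPM in WT libraries, 31.1, 31.7, 41.6, and 41.2 CPM in 154Q libraries, and 37.6, 49.4, 87.1, and 24.1 CPM in 154Q-AXH libraries. All 154Q libraries lay below the WT libraries, by a small margin for WT-221, and the 154Q-AXH libraries overlapped WT. It did not pass the test in 154Q (-0.92 ± 0.37, adjusted p = 0.16) or 154Q-AXH (-0.47 ± 0.37, adjusted p = 0.678), and was lower in both with the covariate (-0.67 ± 0.14, adjusted p = 0.00553, and -0.68 ± 0.14, adjusted p = 0.00888).

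Ebf1 encodes a transcription factor of developing direct pathway neurons, and was at 6.55, 6.01, 11.6, and 4.97 CPM in WT libraries, 8.03, 6.30, 9.75, and 9.07 CPM in 154Q libraries, and 6.95, 10.97, 18.4, and 3.89 CPM in 154Q-AXH libraries. Its groups overlapped, its log2FC was 0.16 ± 0.38, adjusted p = 0.83 in 154Q and 0.45 ± 0.39, adjusted p = 0.714 in 154Q-AXH, and it passed the test in neither fit.

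Among the indirect pathway genes 1 of 4 matched, Penk, was lower in 154Q and 0 in 154Q-AXH by edgeR (1 at an unadjusted p under 0.05, 0 by DESeq2), with medians of -1.78 and -1.0015. With the covariate all 4 were lower in both mutants, beside 9.61% and 4.85% of all genes, with medians of -1.38 and -1.41. Penk encodes proenkephalin, from which the enkephalins are cut. Its level was 376, 300.4, 1275, and 296 CPM in WT libraries, 117, 61.8, 134, and 125 CPM in 154Q libraries, and 95.5, 192, 405, and 70.6 CPM in 154Q-AXH libraries. Every 154Q library was below every WT library, and of the 154Q-AXH libraries only 154Q-AXH-217 reached the WT range. The log2FC was -2.36 ± 0.60, adjusted p = 0.0382 in 154Q and -1.56 ± 0.58, adjusted p = 0.258 in 154Q-AXH, and the 154Q call held in 6 of 12 fits that left out 1 library. With the covariate it was -1.87 ± 0.21, adjusted p = 7.03e-05 in 154Q and -1.82 ± 0.21, adjusted p = 0.000191 in 154Q-AXH.

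Drd2, which encodes the D2 receptor, was at 102, 68.7, 253, and 70.99 CPM in WT libraries, 49.1, 24.7, 45.5, and 41.8 CPM in 154Q libraries, and 31.4, 66.3, 155, and 18.7 CPM in 154Q-AXH libraries. The 154Q libraries lay below all WT libraries, whereas 154Q-AXH ran from below the lowest 154Q library to above 3 WT libraries. The log2FC was -1.62 ± 0.59, adjusted p = 0.122 in 154Q and -0.87 ± 0.58, adjusted p = 0.605 in 154Q-AXH without the covariate, and Drd2 was lower in both with it (-1.21 ± 0.22, adjusted p = 0.00257, and -1.31 ± 0.23, adjusted p = 0.0031).

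Adora2a encodes the main striatal adenosine receptor, which raises cyclic AMP in indirect pathway neurons. Its level was 159, 114, 397, and 111 CPM in WT libraries, 56.8, 32.8, 55.04, and 59.9 CPM in 154Q libraries, and 46.7, 90.1, 193, and 25.9 CPM in 154Q-AXH libraries. All 154Q libraries were below all WT libraries, and 154Q-AXH-217 was the only 154Q-AXH library within the WT range. The log2FC was -1.94 ± 0.56, adjusted p = 0.0654 in 154Q and -1.14 ± 0.55, adjusted p = 0.426 in 154Q-AXH, and -1.54 ± 0.22, adjusted p = 0.000336, and -1.51 ± 0.22, adjusted p = 0.000803 with the covariate.

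Gpr6, which encodes an orphan receptor that keeps cyclic AMP high, was at 38.9, 34.1, 110.0, and 29.6 CPM in WT libraries, 20.4, 11.96, 20.7, and 21.3 CPM in 154Q libraries, and 14.1, 31.9, 62.3, and 11.6 CPM in 154Q-AXH libraries. The 154Q libraries were again all below WT and the 154Q-AXH libraries overlapped it. The log2FC was -1.52 ± 0.53, adjusted p = 0.109 in 154Q and -0.83 ± 0.52, adjusted p = 0.573 in 154Q-AXH, and -1.12 ± 0.20, adjusted p = 0.00168, and -1.13 ± 0.20, adjusted p = 0.00308 with the covariate.

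**Figure D3:**
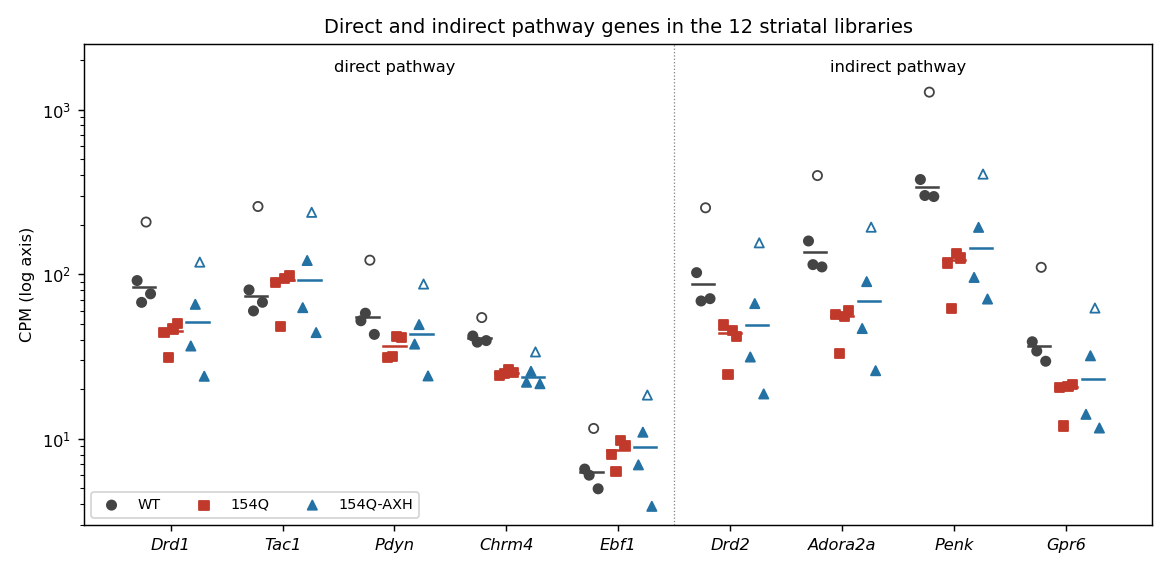
Level in CPM (log axis) of the 5 direct and 4 indirect pathway genes in each striatal library, by genotype; bars are group medians, and open symbols are WT-220 and 154Q-AXH-217. The open symbols are the highest of their group for all 9 genes, and for Penk the 4 154Q libraries (61.8 to 134 CPM) lie below the 4 WT libraries (296 to 1275 CPM).

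Both pathways sit in the same piece of tissue, and ratios of 2 genes were also taken within each library. The pairs were chosen after their values were seen and are described with no test. The ratio of Penk to Tac1 was 4.68, 5.02, 4.95, and 4.39 in WT, 1.31, 1.29, 1.42, and 1.28 in 154Q, and 1.53, 1.59, 1.71, and 1.60 in 154Q-AXH. WT-220 and 154Q-AXH-217 lay among or next to the other libraries of their genotype, and the 3 genotypes did not overlap, with means of 4.76 ± 0.289, 1.33 ± 0.0649, and 1.60 ± 0.0754 (SD, n = 4 each). The ratio of Adora2a to Drd1 was 1.70 ± 0.189 in WT, 1.18 ± 0.0977 in 154Q, and 1.34 ± 0.228 in 154Q-AXH (SD, n = 4 each). That of Drd2 to Drd1, the receptors that define the pathways, was 1.07 ± 0.123, 0.930 ± 0.146, and 0.990 ± 0.234, and that of Pdyn to Tac1 was 0.682 ± 0.208, 0.469 ± 0.134, and 0.480 ± 0.111 (SD, n = 4 each), with overlapping groups for both.

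**Figure D4:**
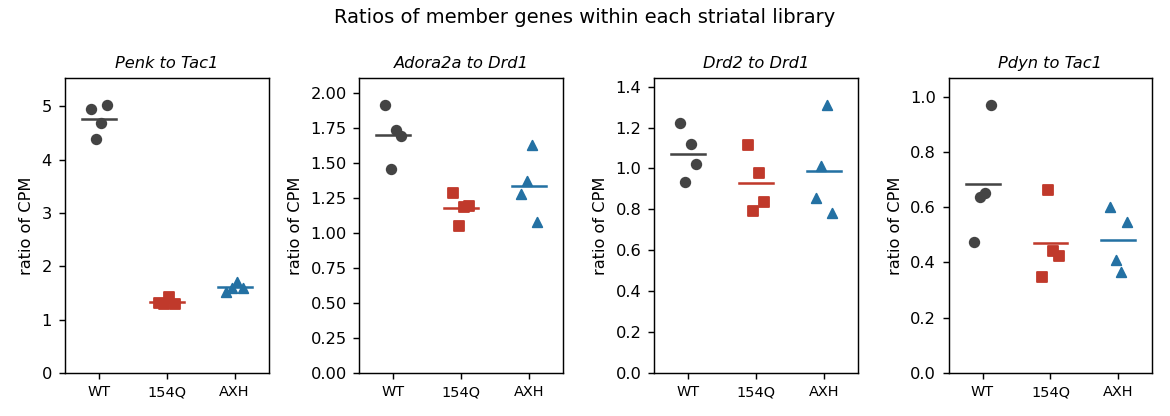
Ratio of CPM values of 2 genes within each striatal library, by genotype, with bars at the group means. Penk to Tac1 separates the 3 genotypes, with WT libraries at 4.39 to 5.02, 154Q at 1.28 to 1.42, and 154Q-AXH at 1.53 to 1.71, while Drd2 to Drd1 overlaps.

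Among the 5 other receptors 3 were lower in 154Q and 2 in 154Q-AXH. Hrh3, which encodes the histamine H3 receptor, was at 96.004, 82.5, 119.7, and 92.7 CPM in WT libraries, 30.4, 28.3, 29.5, and 28.6 CPM in 154Q libraries, and 39.1, 48.1, 41.9, and 41.5 CPM in 154Q-AXH libraries. The 3 genotypes did not overlap: all 154Q libraries were lowest, all 154Q-AXH libraries lay between, and all WT libraries were highest. How many of all genes separate the 2 mutants in this way was not counted. The log2FC was -1.74 ± 0.10, adjusted p = 2.53e-06 in 154Q and -1.20 ± 0.10, adjusted p = 0.000124 in 154Q-AXH.

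Cnr1 encodes the CB1 cannabinoid receptor and was at 188, 129.97, 236, and 188 CPM in WT libraries, 82.1, 73.03, 97.1, and 86.8 CPM in 154Q libraries, and 83.2, 106, 113, and 90.6 CPM in 154Q-AXH libraries. All mutant libraries lay below all WT libraries, and the mutants overlapped each other. The log2FC was -1.13 ± 0.16, adjusted p = 0.00174 in 154Q and -0.92 ± 0.16, adjusted p = 0.0133 in 154Q-AXH, and the latter call was lost without 154Q-AXH-207 (adjusted p = 0.0553).

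Oprk1, which encodes the kappa opioid receptor for dynorphin, was at 22.1, 11.2, 18.5, and 11.1 CPM in WT libraries, 8.03, 3.41, 8.93, and 8.18 CPM in 154Q libraries, and 7.07, 12.9, 10.98, and 7.56 CPM in 154Q-AXH libraries. The 154Q libraries were below WT, with 154Q-71 far below the other 3, and the 154Q-AXH libraries overlapped WT. The log2FC was -1.15 ± 0.31, adjusted p = 0.0491 in 154Q and -0.71 ± 0.31, adjusted p = 0.354 in 154Q-AXH, and the 154Q call held in 1 of 12 fits that left out 1 library. Oprm1, the mu opioid receptor gene, and Drd3, the D3 receptor gene, were at 0.378 to 0.838 and 0.0595 to 0.574 CPM in WT and did not pass the test in either mutant (log2FC in 154Q of 0.76 ± 0.37 and 0.92 ± 0.71).

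Of the 9 genes of G protein and cyclic nucleotide signalling 2 were lower in 154Q, Rgs4 and Arpp21, and Rgs4 alone in 154Q-AXH. All 9 point estimates were below 0 in both mutants, with medians of -1.05 and -0.62. Rgs4 encodes a protein that speeds the switching-off of G proteins and was at 757, 791, 775, and 740.1 CPM in WT libraries, 383, 339.9, 394, and 429 CPM in 154Q libraries, and 367, 431, 482, and 478 CPM in 154Q-AXH libraries. The 4 WT libraries lay close together, WT-220 included, and all 8 mutant libraries were below them. The log2FC was -0.99 ± 0.10, adjusted p = 0.000178 in 154Q and -0.80 ± 0.10, adjusted p = 0.0012 in 154Q-AXH. Arpp21, which encodes a cyclic AMP-regulated phosphoprotein, was at 719.9, 655, 1411, and 647 CPM in WT libraries, 422, 343, 436, and 458 CPM in 154Q libraries, and 345, 512, 690.0, and 364 CPM in 154Q-AXH libraries. The 154Q libraries were below all WT libraries and 154Q-AXH-217 alone among 154Q-AXH reached the WT range. The log2FC was -1.05 ± 0.27, adjusted p = 0.0409 in 154Q and -0.85 ± 0.27, adjusted p = 0.174 in 154Q-AXH, and the 154Q call held in 6 of 12 fits that left out 1 library.

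Ppp1r1b encodes DARPP-32, which inhibits protein phosphatase 1 once phosphorylated by protein kinase A. Its level was 784, 643, 2092, and 608 CPM in WT libraries, 356, 196, 340.4, and 404 CPM in 154Q libraries, and 303, 545, 1118, and 202 CPM in 154Q-AXH libraries. The 154Q libraries were below all WT libraries, and the 154Q-AXH libraries spanned both groups. It passed the test in both mutants only with the covariate, from -1.67 ± 0.52, adjusted p = 0.0799 to -1.30 ± 0.19, adjusted p = 0.00055 in 154Q and from -0.93 ± 0.51, adjusted p = 0.502 to -1.24 ± 0.19, adjusted p = 0.00157 in 154Q-AXH.

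Pde10a, whose product breaks down cyclic AMP and cyclic GMP, was at 569, 437, 944, and 427 CPM in WT libraries, 276, 164, 279, and 263 CPM in 154Q libraries, and 196, 348, 665, and 122 CPM in 154Q-AXH libraries. The 154Q libraries lay below WT and the 154Q-AXH libraries overlapped it. The log2FC was -1.28 ± 0.43, adjusted p = 0.104 in 154Q and -0.84 ± 0.43, adjusted p = 0.465 in 154Q-AXH, and -1.06 ± 0.20, adjusted p = 0.00261, and -1.21 ± 0.20, adjusted p = 0.00246 with the covariate.

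Adcy5, which encodes the main striatal adenylyl cyclase, was at 640.4, 492, 1126, and 501 CPM in WT libraries, 359, 264, 369, and 351 CPM in 154Q libraries, and 311, 502, 826, and 258 CPM in 154Q-AXH libraries. The order of the groups was as for Pde10a. The log2FC was -1.04 ± 0.35, adjusted p = 0.0976 in 154Q and -0.54 ± 0.34, adjusted p = 0.581 in 154Q-AXH, and -0.83 ± 0.13, adjusted p = 0.000662, and -0.76 ± 0.13, adjusted p = 0.00258 with the covariate.

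Rgs9, which encodes a striatal regulator of D2 receptor signalling, was at 188, 137, 397, and 130.4 CPM in WT libraries, 107, 62.8, 87.6, and 97.9 CPM in 154Q libraries, and 71.8, 143, 303, and 43.8 CPM in 154Q-AXH libraries. Again the 154Q libraries lay below WT and those of 154Q-AXH overlapped it. The log2FC was -1.26 ± 0.52, adjusted p = 0.163 in 154Q and -0.60 ± 0.51, adjusted p = 0.714 in 154Q-AXH, and -0.94 ± 0.21, adjusted p = 0.0081, and -1.01 ± 0.21, adjusted p = 0.00987 with the covariate. Pde1b, the calcium-dependent phosphodiesterase gene, was at 479 to 1270.4 CPM in WT, 264 to 383 CPM in 154Q, and 240.1 to 875 CPM in 154Q-AXH, and was lower with the covariate (-0.80 ± 0.13, adjusted p = 0.00109, and -0.86 ± 0.13, adjusted p = 0.00128). Gnal, which encodes the alpha subunit of Golf, and Gng7, which encodes a gamma subunit, had log2FC values of -0.33 ± 0.29 and -0.75 ± 0.47 in 154Q, and did not pass the test.

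CIC binds the octamers TGAATGAA and TGAATGGA, and the promoters of the genes were searched for both on both strands. RefSeq promoters (GRCm38.p6, 250 bases before to 50 bases after an annotated start) were at hand for 32 of the 41 genes. An octamer was found in 1 of the 32 (3.13%), beside 770 of all 27025 genes with a promoter (2.85%). The window is at an annotated start within Pde1b on the + strand, chr15:103514727-103515026, and is shown because it is the only one, with the reverse complement of TGAATGAA in capitals, 246 bases before the start.
Pde1b: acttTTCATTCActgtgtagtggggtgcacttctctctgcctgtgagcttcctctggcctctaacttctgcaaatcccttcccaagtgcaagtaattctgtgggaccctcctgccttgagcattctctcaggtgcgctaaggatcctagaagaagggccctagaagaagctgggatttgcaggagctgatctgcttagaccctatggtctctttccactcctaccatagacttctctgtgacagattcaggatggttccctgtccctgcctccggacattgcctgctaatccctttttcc
A match of letters is a description and not a binding site.

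Of the 6 genes for other enzymes and signalling proteins 2 were lower in 154Q, Ptpn7 and Hpca, and 0 in 154Q-AXH by edgeR (2 at an unadjusted p under 0.05, 0 by DESeq2). Ptpn7, which encodes a tyrosine phosphatase that acts on MAP kinases, was at 3.75, 2.96, 8.74, and 2.62 CPM in WT libraries, 0.810, 0.279, 0.865, and 0.582 CPM in 154Q libraries, and 0.563, 1.21, 2.78, and 0.216 CPM in 154Q-AXH libraries. It was a low gene, and the 154Q libraries were below all WT libraries, while only 154Q-AXH-217 reached the WT range. The log2FC was -2.89 ± 0.58, adjusted p = 0.0135 in 154Q and -1.93 ± 0.55, adjusted p = 0.128 in 154Q-AXH, and the 154Q call was lost without 154Q-71 (adjusted p = 0.0519).

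Hpca encodes hippocalcin, a neuronal calcium sensor, and was at 1239.5, 1291, 2345, and 1236 CPM in WT libraries, 851, 780.3, 741, and 871 CPM in 154Q libraries, and 814, 1014, 1342, and 854 CPM in 154Q-AXH libraries. All 154Q libraries lay below WT, and 154Q-AXH-217 alone of its group reached the WT range. The log2FC was -0.91 ± 0.21, adjusted p = 0.0272 in 154Q and -0.60 ± 0.21, adjusted p = 0.23 in 154Q-AXH, and the 154Q call held in 8 of 12 fits that left out 1 library. Rasd2 (a small GTPase, Rhes), Rasgrp2 (an exchange factor for Rap), Ido1 (an enzyme of tryptophan breakdown), and Dclk3 (a kinase) had log2FC values of -1.29 ± 0.45, -1.28 ± 0.48, -1.20 ± 0.56, and -0.25 ± 0.15 in 154Q and passed the test in neither mutant. With the covariate the first 3 were lower in 154Q (-1.01 ± 0.17, -0.97 ± 0.18, and -0.72 ± 0.17) and in 154Q-AXH (-0.92 ± 0.18, -0.93 ± 0.18, and -0.80 ± 0.17), and so were Ptpn7 and Hpca.

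Of the 5 genes for channels, synapse, and cytoskeleton 2 were lower in 154Q, Scn4b and Ano3, and 0 in 154Q-AXH by edgeR (2 at an unadjusted p under 0.05, 1 by DESeq2). Scn4b, which encodes the beta 4 subunit of voltage-gated sodium channels, was at 589, 481, 1136, and 475 CPM in WT libraries, 122, 76.6, 122, and 132 CPM in 154Q libraries, and 139.9, 217.3, 419.7, and 89.05 CPM in 154Q-AXH libraries. All 8 mutant libraries lay below all 4 WT libraries. The log2FC was -2.57 ± 0.44, adjusted p = 0.00527 in 154Q and -1.63 ± 0.42, adjusted p = 0.0897 in 154Q-AXH, and -2.33 ± 0.17, adjusted p = 1.94e-06, and -1.94 ± 0.17, adjusted p = 1.79e-05 with the covariate. Ano3, of the anoctamin family, was at 243, 221.3, 309.9, and 230.1 CPM in WT libraries, 139, 119, 165, and 164 CPM in 154Q libraries, and 126, 167, 252, and 124 CPM in 154Q-AXH libraries. The 154Q libraries were below all WT libraries and those of 154Q-AXH overlapped WT through 154Q-AXH-217. The log2FC was -0.78 ± 0.21, adjusted p = 0.0464 in 154Q and -0.59 ± 0.21, adjusted p = 0.229 in 154Q-AXH, and the 154Q call held in 3 of 12 fits that left out 1 library. Syndig1l (a synapse differentiation protein), Actn2 (an actin cross-linker of dendritic spines), and Strip2 (a protein of a phosphatase and kinase complex) had log2FC values of -1.95 ± 0.55, -0.83 ± 0.43, and -0.03 ± 0.43 in 154Q, with no call in either mutant without the covariate. With it Syndig1l was lower in both (-1.56 ± 0.21, adjusted p = 0.000288, and -1.35 ± 0.21, adjusted p = 0.00164), Actn2 in 154Q (-0.57 ± 0.17, adjusted p = 0.0376), and Scn4b and Ano3 in both.

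None of the 7 transcription factor genes was a DEG in striatum in either mutant by edgeR or DESeq2, and 0 had an unadjusted p under 0.05. Of all genes 3.77% were lower in 154Q and 1.08% in 154Q-AXH, so 0 of 7 does not set these genes apart. The median log2FC was -0.37 in 154Q and -0.09 in 154Q-AXH. Bcl11b encodes CTIP2, which directs the differentiation of spiny neurons, and was at 107, 87.1, 195, and 93.2 CPM in WT libraries, 81.9, 60.1, 90.6, and 76.9 CPM in 154Q libraries, and 70.2, 106, 173, and 51.1 CPM in 154Q-AXH libraries. The groups overlapped. The log2FC was -0.64 ± 0.34, adjusted p = 0.274 in 154Q and -0.27 ± 0.34, adjusted p = 0.834 in 154Q-AXH, and with the covariate Bcl11b alone of the 7 was lower, in both mutants (-0.44 ± 0.13, adjusted p = 0.0339, and -0.49 ± 0.13, adjusted p = 0.038). Foxp1, Foxp2, Meis2, Rarb, Six3, and Zfp503 had log2FC values of -0.30 ± 0.19, -0.25 ± 0.32, -0.37 ± 0.33, -0.65 ± 0.41, -0.69 ± 0.62, and 0.18 ± 0.36 in 154Q.

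The 2 mutants were also compared directly, as 154Q-AXH against 154Q. In this comparison the AXH changes and the number series of the libraries cannot be told apart. No gene was a DEG in striatum by edgeR, where 0% of all genes were, nor by DESeq2, and 2 had an unadjusted p under 0.05. The point estimate was above 0 for 40 of 41 genes without the covariate, with a median log2FC of 0.44. With the covariate the median was -0.03. Without it, and with WT-220 and 154Q-AXH-217 left out after the data were seen, the median was -0.02. The direction thus changed with the covariate and with the libraries used, and the cause was not tested. For Penk the log2FC was 0.80 ± 0.57, adjusted p = 0.945 and 0.05 ± 0.21, adjusted p = 0.986 with the covariate, for Drd1 0.51 ± 0.45, adjusted p = 0.945 and -0.07 ± 0.18, adjusted p = 0.967, and for Scn4b 0.94 ± 0.42, adjusted p = 0.945 and 0.39 ± 0.17, adjusted p = 0.914. Hrh3 was at 0.55 ± 0.10, adjusted p = 0.945 and 0.50 ± 0.09, adjusted p = 0.56. Its 4 libraries per genotype did not overlap, a separation that was not counted over all genes. Only when WT-220 and 154Q-AXH-217 were left out and the covariate was kept, chosen after seeing the data, did 2 genes pass: Hrh3 (0.56 ± 0.07, adjusted p = 0.0403) and Scn4b (0.46 ± 0.06, adjusted p = 0.0403) were higher in 154Q-AXH, beside 0.0162% of all genes.

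Other genes of the same neurons and of their neighbours were read from lists drawn up with earlier results of these data known. The counts stand beside 3.77% of all genes lower in 154Q and 1.08% in 154Q-AXH. A count of 0 or 1 in a short list is not read as a result about the list. Of 27 further genes of dopamine, cyclic AMP, and calcium signalling 7 were lower in 154Q, among them Homer1 (log2FC = -0.94), a postsynaptic scaffold, Ppp1ca (-0.60), a catalytic subunit of protein phosphatase 1, Ppp3ca (-0.54), a calcineurin subunit, and Shank3 (-0.54). In 154Q-AXH 3 were lower: Homer1 (-0.88), Shank3 (-0.39), and Rgs7bp (-0.37). The medians were -0.15 and -0.22. Of 7 striosome and matrix markers 2 were lower in 154Q (Kremen1 and Id4) and none in 154Q-AXH, and of 6 other direct or indirect pathway markers none passed in either. Of 8 striatal interneuron markers Sst (-0.92) and Npy (-0.74) were lower in 154Q and Sst (-0.56) in 154Q-AXH. The summed interneuron markers were at 379.6 to 547 CPM in WT, 244 to 269 CPM in 154Q, and 291 to 336 CPM in 154Q-AXH, without overlap. Oligodendrocyte markers summed to 9753 to 16187 CPM in WT, 7070 to 8556 CPM in 154Q, and 6513 to 15726 CPM in 154Q-AXH. Astrocyte markers summed to 965 to 1079.6 CPM in WT, 813 to 878 CPM in 154Q, and 860 to 929.5 CPM in 154Q-AXH, with both mutants below WT, and 1 of 5 astrocyte markers and 1 of 4 endothelial markers were lower in 154Q and none in 154Q-AXH. The part of these cell types in the results above was not tested.

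Whether the effects in striatum differed from those elsewhere was tested as an interaction over all 59 libraries, as the log2FC in striatum minus its mean over the other 4 regions. In 154Q 16 of 41 genes had a more negative effect in striatum (39.0%, beside 1.21% of all genes): Chrm4, Drd2, Adora2a, Penk, Cnr1, Hrh3, Rgs9, Rgs4, Pde10a, Pde1b, Adcy5, Arpp21, Ptpn7, Hpca, Scn4b, and Syndig1l. The differences were largest for Ptpn7 (-3.31), Scn4b (-2.30), Penk (-2.06), and Syndig1l (-2.06). The other regions include the hippocampal library 154Q-76, which stands apart and is described below. Without it 16 and 3 genes differed, and these 4 differences were -2.99, -1.71, -1.61, and -1.90. In 154Q-AXH 2 genes differed, Cnr1 (-0.79) and Rgs4 (-0.52), beside 0.193% of all genes. With cortex alone as the reference 0 genes differed in either mutant by edgeR, beside 0.00412% and 0% of all genes. At an unadjusted p under 0.05 there were 16 and 7. With so few of all genes called, 0 of 41 is not read as a result about these genes. The 154Q count was 6 without the striatal library WT-220 and 9 without 154Q-71, and the 154Q-AXH count was 1 without 154Q-AXH-207 or 154Q-AXH-209 and 12 without 154Q-AXH-217. Leaving out both WT-220 and 154Q-AXH-217 gave 9 and 6. For the fits with libraries left out the share of all genes is not given, so their counts are not read as particular to these genes.

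In cortex 39 of the 41 genes were tested. In 154Q 11 were lower and 2 higher, beside 6.71% and 4.4% of all genes, and in 154Q-AXH 9 were lower and 1 higher, beside 4.76% and 2.39%. Markers of other cells were lower in 154Q cortex as well: 4 of 5 of astrocytes, 3 of 6 of all neurons (1 was higher), and 3 of 8 of interneurons, with 0, 1, and 2 lower in 154Q-AXH. The interneuron markers summed to 361 to 378 CPM in WT, 236 to 287 CPM in 154Q, and 276 to 297 CPM in 154Q-AXH, those of GABAergic neurons to 581 to 643, 457 to 500.5, and 498 to 518 CPM, and those of astrocytes to 1148.5 to 1269, 921.5 to 1058, and 928 to 1140.1 CPM, and in each sum all mutant libraries lay below WT. Their part in the results was not tested. The opioid peptide precursor genes Pdyn and Penk were lower in both mutants. Pdyn was at 30.6, 27.7, 25.97, and 26.8 CPM in WT libraries, 15.7, 11.7, 11.2, and 16.1 CPM in 154Q libraries, and 10.99, 16.5, 14.8, and 18.2 CPM in 154Q-AXH libraries (log2FC = -1.02 ± 0.14, adjusted p = 0.000263 in 154Q and -0.88 ± 0.14, adjusted p = 0.00117 in 154Q-AXH). All mutant libraries lay below all WT libraries. Penk was at 35.2, 22.9, 36.4, and 42.8 CPM in WT libraries, 18.8, 17.9, 14.2, and 19.6 CPM in 154Q libraries, and 11.8, 16.6, 18.4, and 23.96 CPM in 154Q-AXH libraries (-0.96 ± 0.19, adjusted p = 0.00448, and -0.96 ± 0.19, adjusted p = 0.00683). The 4 154Q libraries lay below WT, and 154Q-AXH-218 alone of its group reached the lowest WT library. The ratio of Penk to Tac1 was 1.68 to 2.88 in WT cortex, 1.23 to 1.61 in 154Q, and 1.05 to 1.504 in 154Q-AXH.

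Hrh3 was at 53.8 to 76.1 CPM in WT cortex, 18.1 to 30.4 CPM in 154Q, and 20.5 to 31.2 CPM in 154Q-AXH (-1.42 ± 0.15, adjusted p = 4.2e-05, and -1.22 ± 0.15, adjusted p = 0.000144). Scn4b was at 55.1 to 99.4, 23.9 to 36.98, and 17.4 to 57.4 CPM (-1.56 ± 0.28, adjusted p = 0.00206, and -1.11 ± 0.27, adjusted p = 0.0214). Rgs4 was at 497 to 607, 338 to 395, and 331 to 436 CPM (-0.61 ± 0.09, adjusted p = 0.000339, and -0.57 ± 0.09, adjusted p = 0.000866). These 3 were thus lower in both mutants in cortex, as were Ppp1r1b and Arpp21 (log2FC in 154Q -0.95 ± 0.17 and -0.43 ± 0.06). Rasd2 (-0.91 ± 0.19), Ano3 (-0.52 ± 0.11), Rasgrp2 (-0.38 ± 0.11), and Bcl11b (-0.30 ± 0.06) were lower in 154Q, and Chrm4 (-0.39 ± 0.09) and Ido1 (-1.54 ± 0.44) in 154Q-AXH. Zfp503, a transcription factor gene, was higher in both (0.83 ± 0.18, adjusted p = 0.00881, and 0.70 ± 0.19, adjusted p = 0.0317), and Actn2 in 154Q (0.56 ± 0.14, adjusted p = 0.015). For 2 cortical libraries, 154Q-76 and 154Q-AXH-207, the names of the deposited tables and the labels disagree on the number and the genotype, each naming the other, so 1 library of each mutant group may belong to the other. The labels were followed. With the 2 exchanged 14 genes were called in 154Q and 9 in 154Q-AXH, in place of 13 and 10, and with both left out 12 and 8.

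In hippocampus 39 genes were tested, 5 of which were lower in 154Q, beside 3.39% of all genes, and 1 in 154Q-AXH, beside 0.671%. Hrh3 was lower in both (-1.03 ± 0.26, adjusted p = 0.0359, and -1.21 ± 0.26, adjusted p = 0.0451), and Pdyn (-0.995 ± 0.26), Gng7 (-0.50 ± 0.13), Rasd2 (-0.81 ± 0.14), and Hpca (-0.99 ± 0.17) in 154Q. The library 154Q-76 stood apart in its markers: projection neuron markers summed to 773 CPM in it and to 1328 to 1853 CPM in the other 11 libraries, septal, thalamic, and hypothalamic markers to 224 CPM against 50.1 to 92.4 CPM, and oligodendrocyte markers to 11734 CPM against 3113 to 8009 CPM. The lowest sums of oligodendrocyte (3113 CPM), interneuron (141 CPM), and septal, thalamic, and hypothalamic markers (50.1 CPM) were those of 154Q-AXH-218. Their part in the results was not tested. Penk was at 19.9, 20.6, 17.1, and 17.5 CPM in WT libraries, 4.88, 5.94, 4.68, and 56.7 CPM in 154Q libraries, and 6.16, 6.12, 5.96, and 5.82 CPM in 154Q-AXH libraries. Apart from 154Q-76 the mutant libraries lay between 4.68 and 6.16 CPM, all under the WT libraries. Scn4b was at 13.4, 13.3, 14.2, and 245 CPM in 154Q, where again 154Q-76 alone was high. Without this library 7 genes were lower in 154Q, beside 3.61% of all genes, and 6 in 154Q-AXH, beside 2.06%. Penk (log2FC = -1.87 ± 0.10, adjusted p = 4.07e-06, and -1.65 ± 0.09, adjusted p = 5.24e-06) and Scn4b (-1.23 ± 0.10, adjusted p = 6.12e-05, and -1.16 ± 0.10, adjusted p = 0.000182) were then lower in both mutants. The hippocampal counts turned on single libraries: the 154Q count was 2 without WT-220, 154Q-69, 154Q-71, or 154Q-AXH-209 and 3 without WT-70, WT-77, WT-221, or 154Q-75. The 154Q-AXH count was 2 without 154Q-AXH-207 or 154Q-AXH-218 and 0 without any other single library but 154Q-76. Except without 154Q-76, the share of all genes in these fits is not given, and the counts are not read as particular to these genes.

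In brainstem 40 genes were tested, and 2 were lower in 154Q, beside 0.4% of all genes: Hrh3 at 12.3 to 13.3 CPM in WT and 8.30 to 8.82 CPM in 154Q (-0.57 ± 0.06, adjusted p = 0.00288), and Scn4b at 547 to 574 and 434 to 494 CPM (-0.27 ± 0.04, adjusted p = 0.0118). In 154Q-AXH 0 were DEGs by edgeR, beside 0.0138% of all genes, with 4 at an unadjusted p under 0.05 and 2 called by DESeq2. In cerebellum 38 genes were tested. In 154Q 4 were higher, beside 2.1% of all genes, and 3 lower, beside 3.12%. Syndig1l was at 18.2, 13.9, 11.9, and 13.6 CPM in WT libraries, 22.6, 33.9, 26.4, and 31.3 CPM in 154Q libraries, and 28.5, 24.8, 27.7, and 24.3 CPM in 154Q-AXH libraries and was higher in both mutants (0.99 ± 0.13, adjusted p = 0.000388, and 0.88 ± 0.13, adjusted p = 0.00323), the 1 gene called in 154Q-AXH, beside 1.08% higher among all genes (2 genes without WT-77, WT-221, or 154Q-AXH-209). All 8 mutant libraries lay above all 4 WT libraries. Bcl11b (1.06 ± 0.27, adjusted p = 0.0361), Rgs9 (0.78 ± 0.10, adjusted p = 0.000307), and Pde1b (0.38 ± 0.08, adjusted p = 0.00858) were higher in 154Q, while Scn4b (-0.36 ± 0.06, adjusted p = 0.00218), Strip2 (-0.22 ± 0.05, adjusted p = 0.0267), and Cnr1 (-0.19 ± 0.05, adjusted p = 0.0439) were lower. Bcl11b was low in cerebellum, at 1.18 to 1.76 CPM in WT and 1.87 to 4.45 CPM in 154Q. The cerebellar libraries 154Q-71 and 154Q-75 stood apart: Bcl11b was at 3.64 and 4.45 CPM in them and at 1.87 and 2.14 CPM in the other 154Q libraries, Six3, a transcription factor gene of the forebrain, was at 3.56 and 1.475 CPM in them and at 0 to 0.501 CPM in the other 10 libraries, and septal, thalamic, and hypothalamic markers summed to 90.7 and 67.3 CPM in them and to 25.3 to 41.3 CPM in the others. Without these 2 libraries, a choice made after the data were seen, Syndig1l and Rgs9 were higher, beside 0.786% of all genes, and Scn4b and Strip2 lower, beside 1.45%, while Bcl11b (0.47 ± 0.23, adjusted p = 0.384), Pde1b (0.23 ± 0.06, adjusted p = 0.0807), and Cnr1 (-0.14 ± 0.06, adjusted p = 0.321) did not pass the test.

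Hrh3 was lower in 154Q in striatum, cortex, hippocampus, and brainstem, and Scn4b in striatum, cortex, brainstem, and cerebellum. 154Q-AXH against 154Q gave 0 of these genes as DEGs by edgeR in any of the 5 regions. At an unadjusted p under 0.05 there were 2, 2, 12, 2, and 10 in striatum, cortex, hippocampus, brainstem, and cerebellum. Of all genes edgeR called 0.0335% in cerebellum and 0% in the other regions. DESeq2 called 2 of these genes in cerebellum and 0 elsewhere. Its share of all genes is not given, so the 2 are not read as a result about these genes.

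**Figure D5:**
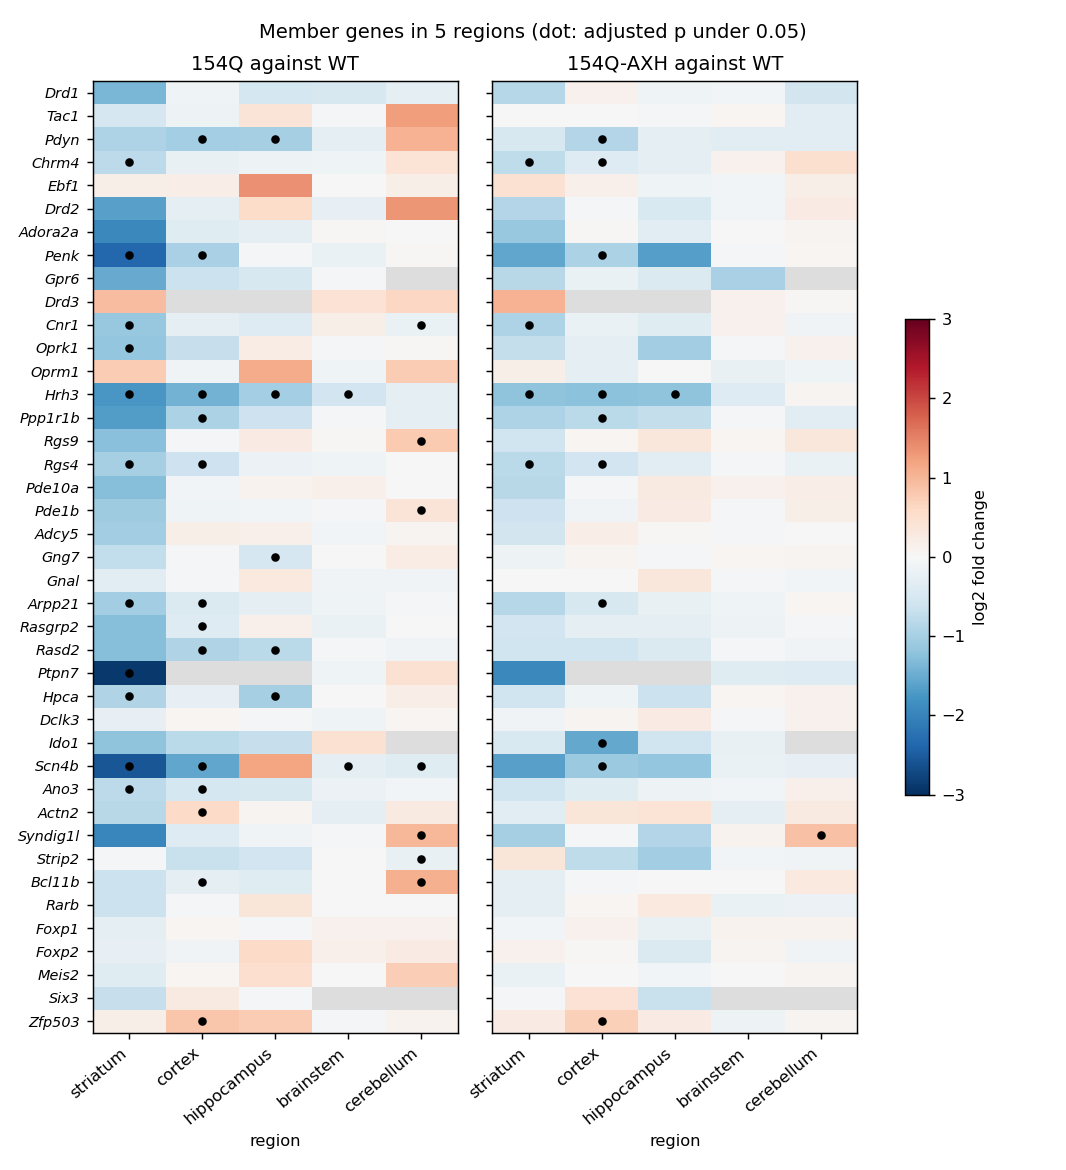
Log2 fold change against WT of the 41 genes (rows, by role) in 5 regions for 154Q and 154Q-AXH; colour gives the size, a dot marks an adjusted p under 0.05, and grey marks a gene that was not tested. In 154Q 11 genes are marked in striatum, 13 in cortex, 5 in hippocampus, 2 in brainstem, and 7 in cerebellum, and in 154Q-AXH 4, 10, 1, 0, and 1.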

How the data were processed

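Bulk RNA was sequenced from 5 brain regions of the 3 genotypes, with 59 libraries. Reads were trimmed with Trimmomatic (0.36) and aligned with STAR (2.7.2d) to GRCm38.p6 with GENCODE M18, per the labels and the methods of the study, and the processing notes also name DESeq2 (1.28.1). The deposited values are raw read pair counts per gene from STAR, and the unstranded column (column 2) was used. Read pairs on overlapping genes are not counted, so the exon bases that Rarb (34.1%), Ppp1r1b (15.7%), Penk (14.3%), and Hrh3 (11.1%) share with other genes gave no counts. Symbols came from GENCODE M21.

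Genes were tested with edgeR (4.0.16, R 4.3.3), using filterByExpr, TMM scaling, and the quasi-likelihood test with Benjamini-Hochberg adjustment at 0.05. Counted read pairs per library ranged from 28058359 to 54719126 in striatum, from 34530406 to 46174761 in cortex, and from 64416717 to 112343574 in the other regions. CPM used TMM library sizes, with a prior count of 2 for log2 CPM. The 3 genotypes of a region were fitted together, and the interaction between region and genotype was fitted over all libraries. The labels give libraries of different regions the same numbers, but the sources used here do not state that these are the same mice, so the number as a block was only an alternative. Others were DESeq2 (1.42.0) and its size factors, no filter, only the 2 genotypes compared, counts of 1 strand, the number series, the cortical marker level, and each library left out. The fits were tested on simulated data.

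Values in every striatal library are given for the direct and indirect pathway genes, Ppp1r1b, Pde10a, Rgs9, Adcy5, Bcl11b, and every gene called in striatum, and values elsewhere for genes called there. The genes and lists were chosen with earlier results of these data known. Figures were drawn with matplotlib (3.10.9) under Python (3.11.15), and tables with pandas (2.3.3).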

Additional observations from a re-analysis of the deposited data

Results flagged for a closer look

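Of 208 groups of 4 libraries, 1 for each gene and genotype in striatum and, elsewhere, for each gene that was a DEG in that region, 26 had a library set apart from the other 3 by more than Dixon's critical value, where chance gives about 1 in 20. In striatum 12 were WT-220, which was high for Penk (1275 CPM), Hpca (2345 CPM), Ppp1r1b (2092 CPM), Arpp21 (1411 CPM), Gng7 (1050.2 CPM), Rasd2 (724 CPM), Adora2a (397 CPM), Syndig1l (388 CPM), Tac1 (258 CPM), Foxp1 (153 CPM), Gpr6 (110.0 CPM), and Ido1 (22.5 CPM). A further 10 were 154Q-71, which was low for Pde1b (264 CPM), Adcy5 (264 CPM), Gng7 (226 CPM), Pde10a (164 CPM), Rasd2 (104 CPM), Tac1 (48.0 CPM), Syndig1l (29.2 CPM), Gpr6 (11.96 CPM), Oprk1 (3.41 CPM), and Ido1 (2.93 CPM). The others were Foxp1 in striatum of 154Q-69 (101 CPM, high), Ppp1r1b in cortex of 154Q-75 (54.2 CPM), Scn4b in cortex of 154Q-76 (37.0 CPM, high), and Strip2 in cerebellum of 154Q-AXH-207 (202 CPM).

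The effect in striatum differed from the mean effect in the other 4 regions, by the interaction test, for 16 genes in 154Q. The differences (log2) were -3.31 for Ptpn7, -2.30 for Scn4b, -2.06 for Penk, -2.06 for Syndig1l, -1.96 for Drd2, -1.78 for Adora2a, -1.50 for Rgs9, -1.31 for Pde10a, -1.10 for Adcy5, -1.07 for Pde1b, -0.94 for Cnr1, -0.91 for Hrh3, -0.82 for Arpp21, -0.76 for Chrm4, -0.74 for Rgs4, and -0.64 for Hpca. In 154Q-AXH they were -0.79 for Cnr1 and -0.52 for Rgs4.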

How the results depend on the processing

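Of the recomputed counts of called genes 280 stayed within 1.5 times the reported count and 63 did not. The 280 include counts of 0 that stayed 0, as between the mutants, so they say less about the counts above 0. In striatum (11 for 154Q and 4 for 154Q-AXH, both against WT) the counts were 27 and 25 with the cortical marker level as a covariate, 17 and 10 with WT-220 and 154Q-AXH-217 left out, and 32 and 33 with both changes, which also gave 2 in place of 0 between the mutants. The last 2 settings were chosen after the data were seen. The covariate itself was given because the cortical markers differed between the libraries. The number series as a covariate gave 3 in striatum of 154Q, 1 in hippocampus and 1 in brainstem of 154Q, 0 in hippocampus of 154Q-AXH, and 3 in its cerebellum. DESeq2 gave 8 in hippocampus of 154Q, 4, 2, and 3 in hippocampus, brainstem, and cerebellum of 154Q-AXH, and 2 in cerebellum between the mutants. With only the 2 genotypes compared there were 2 in striatum and 4 in hippocampus of 154Q-AXH and 4 in cerebellum of 154Q, counts of 1 strand gave 0 in hippocampus of 154Q-AXH, and leaving out 154Q-71 and 154Q-75, also chosen after the data were seen, gave 4 in cerebellum of 154Q. The difference between striatum and other regions gave 0 and 0 (154Q and 154Q-AXH) against cortex alone, beside 0.00412% and 0% of all genes. It gave 9 and 6 without striatal WT-220 and 154Q-AXH-217. Beyond the samples and reference that each setting changes, the cause was not tested. Except where given above, the share of all genes under a setting is not given. The counts, also those below with a library left out, are thus not read as particular to these genes.

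Leaving out each library in turn gave 5 to 20 in striatum of 154Q and 2 to 7 of 154Q-AXH, 11 to 13 and 7 to 11 in cortex, 2 to 7 and 0 to 6 in hippocampus, 2 to 2 and 0 to 0 in brainstem, 5 to 10 and 1 to 2 in cerebellum, 6 to 19 and 1 to 12 for the difference between regions, and 37 to 39 for striatum against the other regions of WT mice. Libraries of different regions share a number, and over 116 same-numbered pairs the deviations from group means correlated with a median of 0.028 (-0.22 to 0.325). A library correlated best with its own number, among libraries of its genotype in another region, in 95 of 232 cases. With the number as a replicate block the difference between regions gave 15 and 3, and the WT comparison 38. Among values of single genes in striatum 2361 kept their call or had no adjusted p, and 126 gained and 54 lost a call. A change of direction was counted only where 1 of the fits called the gene. There was 1: Strip2 in 154Q-AXH, at 0.35 as reported and -0.45 with WT-220 and 154Q-AXH-217 out and the covariate. Changes of direction between fits without a call are within the 2361. Depth limits the genes of the lowest level, Drd3 and Oprm1, at 0.0595 to 0.574 and 0.378 to 0.838 CPM in WT striatum.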
